A study of Mus musculus with 3 samples.

Results

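Prostaglandins, thromboxane and leukotrienes are lipid mediators made from arachidonic acid, a fatty acid that phospholipases release from membranes. The cyclooxygenases turn arachidonic acid into an endoperoxide, from which separate synthases make prostaglandin E2, prostaglandin D2 and thromboxane. In the other arm, 5-lipoxygenase works with its membrane partner FLAP to form leukotriene A4, which is then made into leukotriene B4 or joined to glutathione as leukotriene C4. Macrophages are a known source of both kinds of mediator. The 10 genes described here encode the steps of this synthesis. They were chosen by name as steps of the pathway, with earlier results of these data known, and all 10 were found among the 36835 genes with a level in the table. Of them, 2 encode cyclooxygenases (Ptgs1, Ptgs2) and 3 encode terminal prostanoid synthases (Ptges, Hpgds, Tbxas1). A further 4 belong to the 5-lipoxygenase arm (Alox5, Alox5ap, Ltc4s, Lta4h), and Alox15 encodes the 12/15-lipoxygenase, which oxygenates arachidonic acid at other positions.

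RNA sequencing was performed on 3 cell subsets of BALB/C mice that carried Renca tumors, which grow from a renal carcinoma line, in the kidney. There was 1 library for each subset. M2 (F4/80 high, CD11b intermediate) and M1 (F4/80 intermediate, CD11b high) were type-2 and type-1 macrophages sorted from tumors. CD4 was sorted as TCRβ+ CD4+ lymphocytes, from spleens according to the extraction label and from tumors according to another label. All cells were first gated as CD45.2+ leukocytes. The labels give 30 tumors and 4 spleens from tumor-bearing mice in all, and a harvest at day 14 in one place and day 16 in another. Because each subset was 1 library, no difference described here has a replicate check and no test between subsets was possible. Levels are in FPKM, a fragment count scaled by transcript length and by library size, so that genes of different length can be set beside each other.

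The marker levels went against 2 of the labels. All 9 T-cell genes with a level were highest in the library labelled M2, where they summed to 1590 FPKM, beside 1.55 in that labelled CD4 and 5.04 in that labelled M1. Of 10 macrophage genes, 9 were highest in the library labelled CD4, and the sums were 12600 FPKM in CD4, 8100 in M1 and 620 in M2. With all rows of each identifier, the T-cell sums were 12600 FPKM in M2, 4.93 in CD4 and 8.94 in M1. The macrophage sums were then 18100 in CD4, 8110 in M1 and 631 in M2. Most of the increase came from single genes, Cd5 in M2 (11100 FPKM, 81.3 in the row used) and C1qb in CD4 (6640 FPKM, 1480 in the row used). The libraries are therefore called by their labels, and every direction below rests on these labels. Fewer cells of a type and less RNA per cell cannot be told apart in such libraries. The depth, estimated from the lowest levels, was about 73000000 fragments in CD4, 61800000 in M1 and 60100000 in M2.

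By the rows used, 5 of the 10 synthesis genes were highest in the library labelled CD4, 4 in M1 and 1 in M2, and 6 were lowest in M2. Hpgds and Ptgs1 were highest in the library labelled CD4, while Ptgs2, Alox15 and Alox5ap were highest in that labelled M1. Tbxas1, Alox5, Alox5ap and Ltc4s were lower in the library labelled M2 than in either of the others. The differences ran from 10.1-fold (Ltc4s against M1) to 26.6-fold (Tbxas1 against M1). With all rows of each identifier they ran from 8.75-fold (Alox5ap against CD4) to 19.9-fold (Tbxas1 against M1). Summed over the 10 genes the level was 535 FPKM in M1, 414 in CD4 and 57.4 in M2. With all rows of the repeated identifiers described below, the sums were 572, 444 and 106 FPKM, so that M2 remained the lowest by a smaller margin. Alox5ap alone made up 73.8% of the sum in M1, 56.4% in CD4 and 32.4% in M2, or 69.0, 52.5 and 25.1% with all rows.

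**Figure D1:**
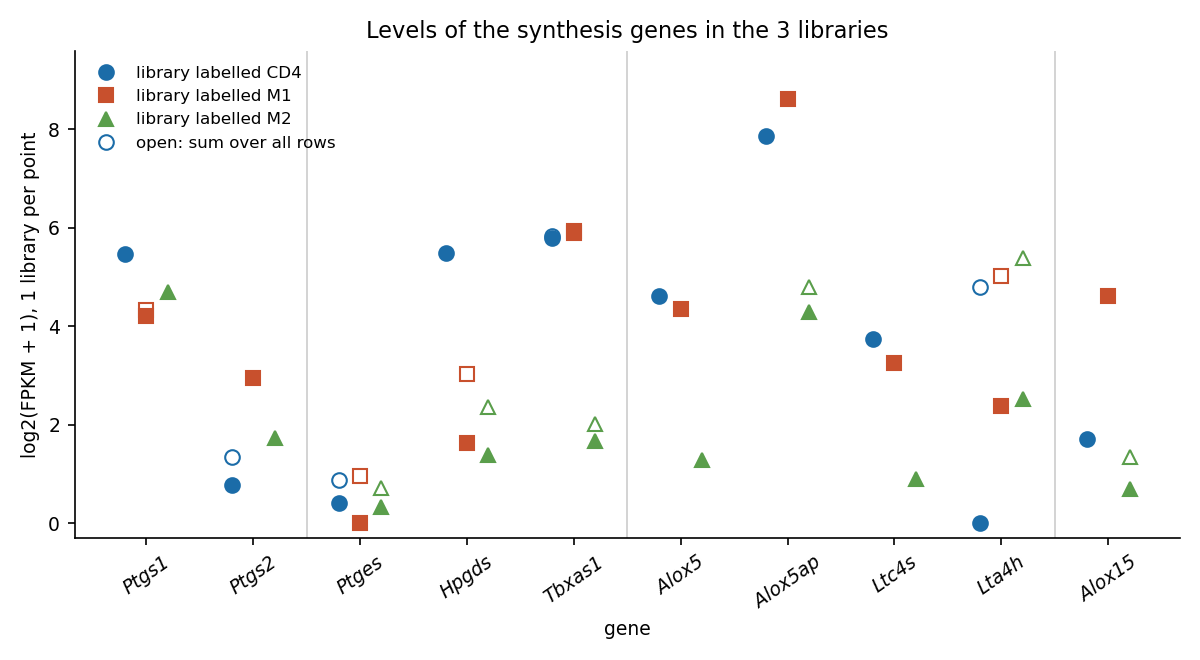
Level of each of the 10 synthesis genes as log2(FPKM + 1) in the libraries labelled CD4 (circles), M1 (squares) and M2 (triangles), 1 library per point, with open symbols for the sum over all rows of a gene where that was higher. Hpgds stands apart in CD4 (43.9 FPKM), Alox15 in M1 (23.4 FPKM), and Lta4h moves upward in all 3 libraries when its second row is added.

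Cyclooxygenase 1, which is made constitutively in many cells, is encoded by Ptgs1 (ENSMUSG00000047250, chromosome 2 from 36085946 to 36107792, forward strand, build NCBIM37, which is also called mm9). Ptgs1 was at 43.5 FPKM in the library labelled CD4, 17.5 in M1 and 24.8 in M2. CD4 was the highest and M1 the lowest, and M2 was at 57.0% of the level in CD4 and 142% of that in M1. Its level came from the 2867-base transcript ENSMUST00000062069 in CD4 and M1. In M2 a part of it, 3.86 FPKM, was given to the transcript ENSMUST00000164028, which was listed at 0 in the other libraries.

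Cyclooxygenase 2, the form induced by inflammatory signals, is encoded by Ptgs2 (ENSMUSG00000032487, chromosome 1 from 151947254 to 151955140, forward strand). Ptgs2 was at 6.68 FPKM in M1, 2.30 in M2 and 0.714 in CD4. M1 was therefore the highest and CD4 the lowest, the reverse of their order for Ptgs1. Within a library, Ptgs1 was 60.9 times the level of Ptgs2 in CD4, 10.8 times in M2 and 2.61 times in M1. A further 2 rows with the same Ptgs2 identifier had a value in CD4 only, and with them the level in CD4 was 1.55 FPKM and the ratio of Ptgs1 to Ptgs2 there was 28.0.

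The terminal synthases differed from one another in pattern. Ptges (ENSMUSG00000050737, chromosome 2 from 30744991 to 30785383, reverse strand) encodes the inducible microsomal prostaglandin E synthase. Its level was 0.329 FPKM in CD4 and 0.257 in M2, and it was listed at 0 in M1. With all rows it was 0.830, 0.636 and 0.930 FPKM in the same order, so that no library reached 1 FPKM and the library listed at 0 became the highest.

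Hpgds (ENSMUSG00000029919, chromosome 6 from 65067287 to 65094902, reverse strand) encodes the hematopoietic prostaglandin D synthase. Hpgds was at 43.9 FPKM in the library labelled CD4, 2.11 in M1 and 1.60 in M2. CD4 was thus high and the other libraries were both low, with 20.8-fold between CD4 and M1. In CD4 it lay above 88.7% of the 11859 genes with a mean of at least 1 FPKM, and in M1 above 18.0% of them. At the estimated depth these levels stand for about 11100 fragments in CD4, 453 in M1 and 335 in M2. The identifier had 11 further rows, each with a value in 1 library only, 7 of them in M1 and 4 in M2. With these added, Hpgds was at 7.12 FPKM in M1 and 4.12 in M2, and CD4 was 6.17-fold above M1 and 10.7-fold above M2, where the rows used gave 27.4-fold.

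Tbxas1 (ENSMUSG00000029925, chromosome 6 from 38825403 to 39034584, forward strand) encodes thromboxane A synthase. It was at 54.4 FPKM in CD4, 58.5 in M1 and 2.20 in M2. The levels in CD4 and M1 were within 1.08-fold of each other and M2 was low. Most of the level was in the 1990-base transcript ENSMUST00000003017. A transcript with a retained intron, ENSMUST00000161781, held 3.77 FPKM in CD4, 5.69 in M1 and 0.297 in M2. Tbxas1 was at 1.24 times the level of Hpgds in CD4 and 27.8 times in M1, or 8.5 times in M1 with all rows.

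Of the genes of the 5-lipoxygenase arm, all but Lta4h were lower in M2 than in CD4 and M1. Alox5 (ENSMUSG00000025701, chromosome 6 from 116360095 to 116411196, reverse strand), which encodes 5-lipoxygenase itself, was at 23.4 FPKM in CD4, 19.5 in M1 and 1.44 in M2. Alox5ap (ENSMUSG00000060063, chromosome 5 from 150076634 to 150099621, forward strand) encodes FLAP, which presents arachidonic acid to the enzyme. It was the most abundant of the 10 genes in CD4 and M1, at 395 FPKM in M1, 234 in CD4 and 18.6 in M2. In M1 it ranked 95 of the 11859 genes with a mean of at least 1 FPKM, and in M2 it ranked 3308. Alox5ap was at 20.3 times the level of Alox5 in M1, 10 times in CD4 and 12.9 times in M2, or 18.5 times in M2 with all rows.

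Ltc4s (ENSMUSG00000020377, chromosome 11 from 50049971 to 50052118, reverse strand) encodes leukotriene C4 synthase, the enzyme that adds glutathione. It was at 12.4 FPKM in CD4, 8.57 in M1 and 0.852 in M2. These levels stand for about 587, 344 and 33.3 fragments. As for Alox5, CD4 was above M1 by less than 2-fold and M2 was low.

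Lta4h (ENSMUSG00000015889, chromosome 10 from 92916141 to 92947641, forward strand) encodes leukotriene A4 hydrolase, which makes leukotriene B4. Its single identifier had 2 rows with values in all libraries. The first, which the rule for the gene levels takes, held 4.18 FPKM in M1, 4.73 in M2 and 0 in CD4. The second held 27.4 FPKM in M1, 35.6 in M2 and 26.9 in CD4. With all rows Lta4h was at 26.9 FPKM in CD4, 31.6 in M1 and 40.7 in M2, within 1.51-fold in every pair of libraries. The 0 in CD4 is therefore the value of 1 of the rows and not the absence of the gene, and each count below that includes Lta4h is also given without it. With all rows Lta4h was the one gene of this arm that was highest in M2, and it stood at 47.8 times the level of Ltc4s there, against 2.17 times in CD4 and 3.69 times in M1.

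Alox15 (ENSMUSG00000018924, chromosome 11 from 70157654 to 70165533, reverse strand) was at 23.4 FPKM in M1, 2.25 in CD4 and 0.610 in M2. M1 was high and both others were low, where for Hpgds the high library was CD4. In M1 Alox15 was at 1.20 times the level of Alox5, while in CD4 Alox5 was at 10.4 times the level of Alox15. The levels of Alox15 stand for about 3480 fragments in M1, 396 in CD4 and 88.3 in M2. M1 was 38.3-fold above M2, or 15.2-fold with all rows, which added to M2 only.

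**Figure D2:**
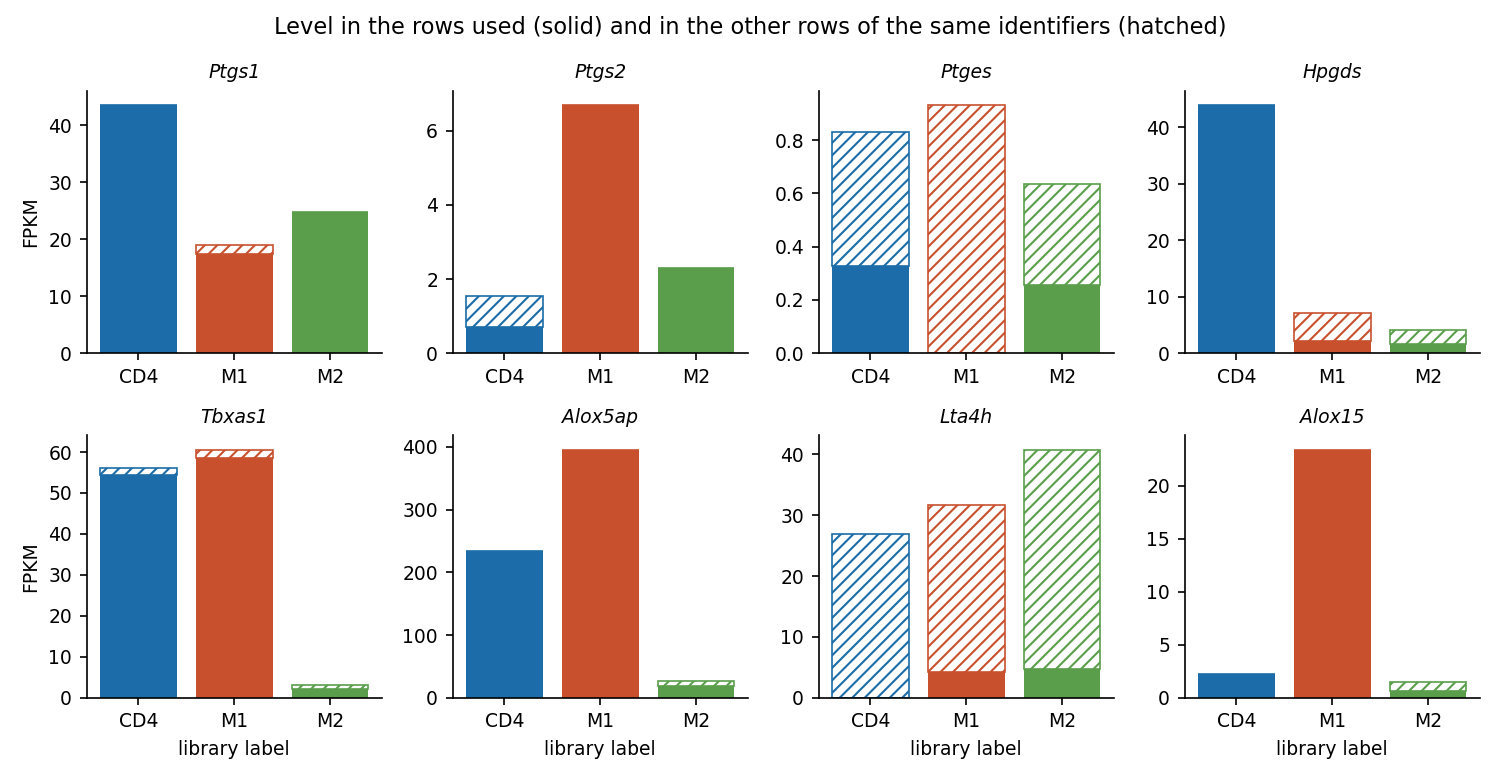
FPKM of the 8 members with repeated identifiers in each library, with the rows used as solid bars and the other rows of the same identifiers hatched on top (each panel has its own scale from 0). Most of Lta4h lies in the other rows (27.4 of 31.6 FPKM in M1), those of Hpgds add 5.01 FPKM in M1, and those of Tbxas1 add 1.79 of 56.2 FPKM in CD4.

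The libraries labelled CD4 and M1 were then compared, which both held macrophage genes. Here and below, a gene is counted as higher or lower where the ratio of FPKM + 1 was 2 or more in either direction, that is a log2 ratio of 1 or more. Adding 1 makes the differences of weakly expressed genes look smaller than they are. Among the 11859 genes with a mean of at least 1 FPKM over the libraries, 6.14% were higher in CD4 and 6.43% were lower. Of the 10 synthesis genes 9 reached this mean, and Ptges did not. Of all 10, 2 were higher in CD4, namely Hpgds (log2 ratio 3.85) and Ptgs1 (1.27). Those lower in CD4 numbered 3, namely Alox15 (-2.90), Lta4h (-2.37) and Ptgs2 (-2.16), and 2 when Lta4h was taken over all rows (-0.22). The remaining members lay between -0.76 for Alox5ap and 0.48 for Ltc4s. The median over the members was 0.07, beside -0.01 over all genes tested, and the members lay on both sides of it. Alox15 was 10.4-fold and Ptgs2 9.35-fold higher in M1, and with all rows Ptgs2 was 4.30-fold higher.

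The 250 bases upstream of 3 genes counted as different between these libraries are shown because they carry the regions from which transcription of each starts. The windows of Hpgds and Ptgs1 stand for the genes higher in CD4 and that of Ptgs2 for those higher in M1. Each was read from build NCBIM37 upstream of the start of the gene's most abundant coding transcript, written 5′ to 3′ on the strand of the gene. Hpgds lies at chr6:65094903-65095152 on the reverse strand. Ptgs1 lies at chr2:36085696-36085945 and Ptgs2 at chr1:151947004-151947253, both on the forward strand. Capitals mark matches to the 7 motifs given in the next paragraph.
Hpgds: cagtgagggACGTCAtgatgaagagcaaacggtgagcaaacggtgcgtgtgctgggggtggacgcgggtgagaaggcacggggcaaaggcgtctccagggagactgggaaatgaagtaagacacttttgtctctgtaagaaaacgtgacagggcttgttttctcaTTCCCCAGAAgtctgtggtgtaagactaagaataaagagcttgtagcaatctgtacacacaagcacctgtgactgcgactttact
Ptgs1: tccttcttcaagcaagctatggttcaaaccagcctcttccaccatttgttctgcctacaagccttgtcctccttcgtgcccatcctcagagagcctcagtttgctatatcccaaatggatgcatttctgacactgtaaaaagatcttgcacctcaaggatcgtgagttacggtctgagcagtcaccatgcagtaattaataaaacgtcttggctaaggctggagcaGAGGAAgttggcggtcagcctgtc
Ptgs2: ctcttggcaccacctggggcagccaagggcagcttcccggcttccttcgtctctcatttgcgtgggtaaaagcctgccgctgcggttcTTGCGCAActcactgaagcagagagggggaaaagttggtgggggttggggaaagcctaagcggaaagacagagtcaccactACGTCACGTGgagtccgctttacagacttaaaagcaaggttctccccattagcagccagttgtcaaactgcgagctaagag

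The motifs were searched on both strands of the windows of all 10 members and of 10491 tested genes with a coding transcript. The Ptgs2 window held the C/EBP motif TTNNGCAA, 162 to 155 bases before the start, and an E-box CACGTG that overlaps the CRE core ACGTCA, between 81 and 72 bases before the start. These motifs were in 7.32%, 8.51% and 10.1% of all windows. The Hpgds window also held ACGTCA, and the spaced pair TTCNNNNGAA named for STAT6, which was in 4.70% of windows. The Ptgs1 window held the PU.1 core GAGGAA, 24 to 19 bases before the start. This core was in the windows of 6 of the 10 members (Ptgs1, Ptges, Tbxas1, Alox5, Alox5ap and Lta4h) and in 23.0% of all windows. TATAAA (6.86% of windows) and the AP-1 motif TGANTCA (4.27%) were found in the Tbxas1 window alone. A match of letters is not evidence that a factor was bound.

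The library labelled M2 was set beside CD4 and M1. Because it enters both comparisons, their values are not independent. Against CD4, 15.9% of the tested genes were higher in M2 and 15.2% were lower. Of the 10 members 6 were lower in M2, namely Tbxas1 (log2 ratio -4.11), Hpgds (-4.11), Alox5ap (-3.58), Alox5 (-3.32), Ltc4s (-2.85) and Alox15 (-1.01). Alox15 lay at the threshold, and with all rows it was at -0.36. Only Lta4h was counted as higher (2.52), and with all rows it was at 0.58 and no member was counted as higher. Ptgs2 lay just short of the threshold at 0.95. The median over the members was -1.93 beside 0.09 over all genes tested.

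Against M1, 15.5% of the tested genes were higher in M2 and 14.4% were lower. None of the 10 members was higher and 6 were lower, namely Alox5ap (-4.33), Tbxas1 (-4.22), Alox15 (-3.92), Alox5 (-3.07), Ltc4s (-2.37) and Ptgs2 (-1.22). Hpgds differed little between these libraries (-0.26), since it was low in both. The median over the members was -1.79 beside 0.07 over all genes tested. The highest ratio was that of Ptgs1 (0.48).

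**Figure D3:**
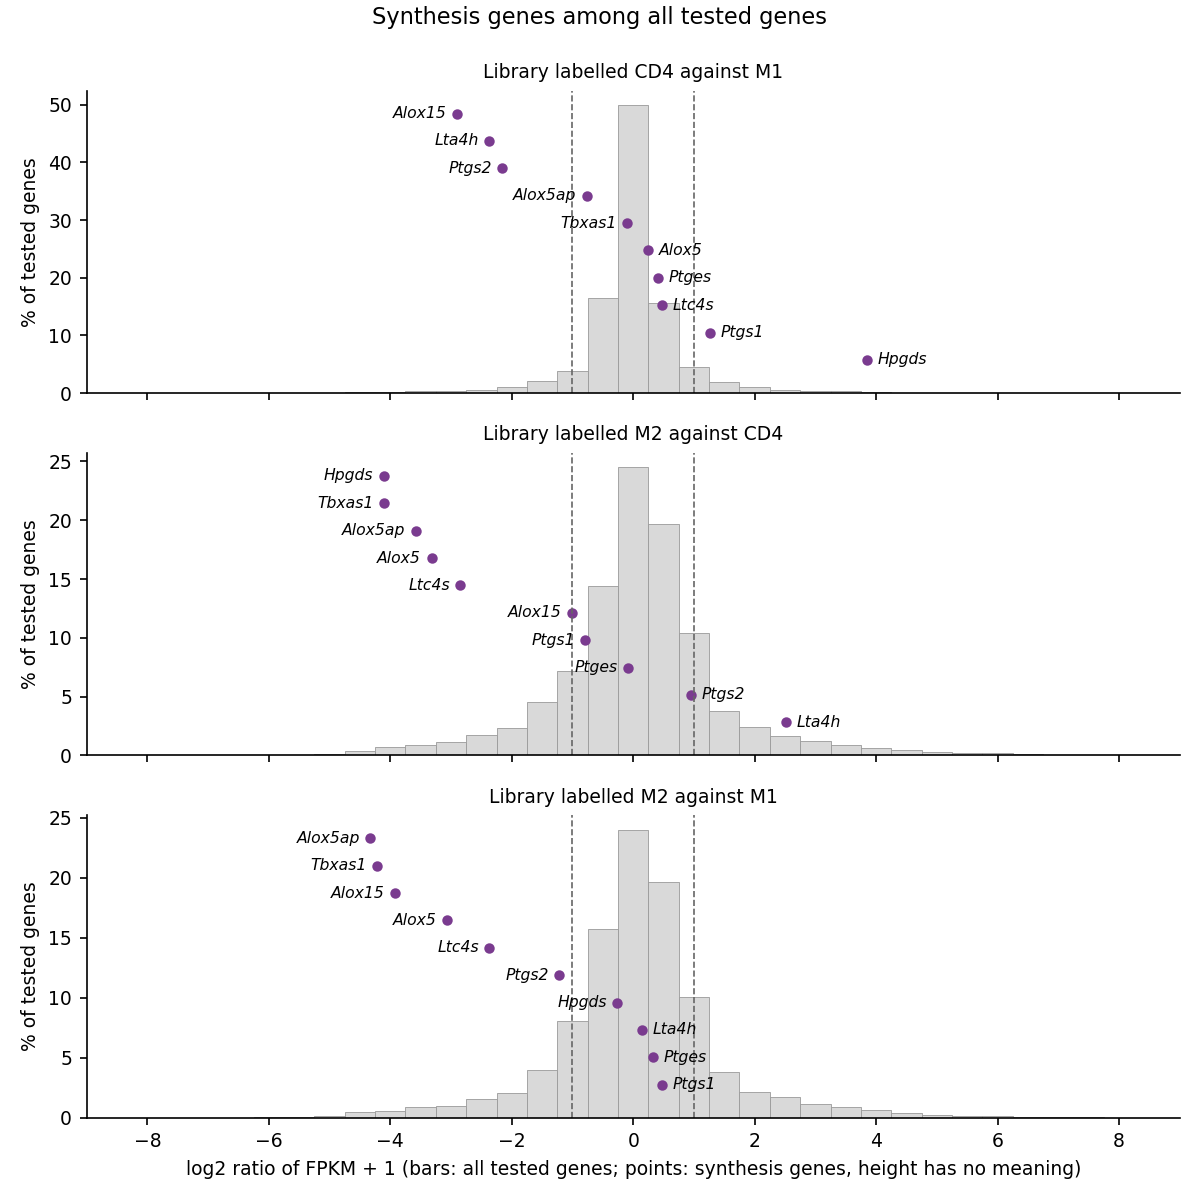
Share of the 11859 tested genes (bars, % of genes) by log2 ratio of FPKM + 1 in each of the 3 comparisons, with the 10 synthesis genes as points at their own ratio (their height has no meaning) and dashed lines at 2-fold. In CD4 against M1 the members spread from -2.90 (Alox15) to 3.85 (Hpgds), and in M2 against M1 they reach from -4.33 (Alox5ap) to 0.48 (Ptgs1).

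Macrophage markers were also lower in M2, and some of the members were lower to a similar extent while others were not. In the library labelled M2, the 10 macrophage genes were at 2.95 to 15.3% of their level in CD4, with a median of 4.05%, and at 4.93 to 24.4% of their level in M1, with a median of 12.9%. Tbxas1 was at 4.05% of its level in CD4 and 3.76% of its level in M1. The corresponding values were 6.18 and 7.42% for Alox5, 7.98 and 4.72% for Alox5ap, and 6.88 and 9.94% for Ltc4s. Ptgs1 (57.0 and 142%) and Ptgs2 (322 and 34.5%) lay above the range of the macrophage genes against both libraries. Hpgds was at 3.65 and 76.0%, and Alox15 at 27.1 and 2.61%. Lta4h was at 113% of its level in M1, and Ptges at 78.1% of its level in CD4. With all rows, M2 was at 0.682 times the level in CD4 and 0.0658 times that in M1 for Alox15. In the same order these ratios were 0.0939 and 0.579 for Hpgds, 0.0541 and 0.0502 for Tbxas1, and 0.114 and 0.0676 for Alox5ap. They were 1.51 and 1.29 for Lta4h and 0.766 and 0.684 for Ptges. The part of macrophage RNA in these differences was not tested.

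Other cells known for these enzymes were looked for through their markers. Mast cells and basophils make prostaglandin D2 and leukotriene C4, eosinophils leukotriene C4 and 12/15-lipoxygenase products, and platelets thromboxane. The 8 mast cell genes summed to 0.162 FPKM in CD4, 0.293 in M1 and 2.95 in M2, where Cma1 was the highest at 0.576. With all rows the sum in M2 was 5.17 FPKM, with Cpa3 at 2.06. The 4 basophil genes summed to 0, 0.0181 and 0.832 FPKM, with Mcpt8 at 0.336 in M2. The 6 eosinophil genes summed to 0.614, 1.42 and 0.570 FPKM, with Siglec5 (the annotation's symbol for Siglecf) at 1.05 in M1. Of these genes 3 were highest in M1 and 3 in M2, where Il5ra was at 0.275 FPKM. Among 8 platelet genes, 4 (Gp9, Gp1bb, Gp6 and Treml1) were listed at 0 in every library by the rows used, although with all rows Treml1 was at 2.54 FPKM in CD4 and 0.987 in M1. Pf4, which macrophages also express, was at 174 FPKM in CD4 and 81.1 in M1, and Ppbp at 2.72 and 18.8. The 10 neutrophil genes summed to 36.4 FPKM in CD4, 72.3 in M1 and 239 in M2, with S100a9 at 6.08, 28.1 and 110 FPKM, and in the other direction Csf3r at 25.3, 19.7 and 8.40. With all rows the sums were 405, 441 and 966 FPKM, of which 336, 366 and 723 were Elane, at or below 0.351 FPKM in the rows used. Ly6g was at most 0.0916 FPKM in the rows used and at 1.26 in M2 with all rows. In the rows used, the 6 B-cell genes summed to 0.508 FPKM in CD4, 0.441 in M1 and 51.9 in M2. Of them 4 were highest in M2, with Cd79a at 18.2, while Cd79b was at 0.218, 0.160 and 0 FPKM. Pax5 was listed at 0 in every library, or at 1.48, 0.798 and 6.49 with all rows. The 10 kidney epithelial genes summed to 57.3, 41.2 and 103 FPKM in the rows used, most of it Cdh16. With all rows the sums were 2.07, 1.24 and 71.3 FPKM for the B-cell genes and 75.1, 54.8 and 123 for the kidney epithelial genes. The part of these cells in the levels of the synthesis genes was not tested.

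The wider pathway was described by 53 further genes, of which 52 had a level and 34 a mean of at least 1 FPKM. In CD4 against M1, 4 of the 34 were higher and 6 were lower, where 6.14% and 6.43% of all tested genes were. In M2 against CD4, 5 of the 34 were higher and 9 were lower, beside 15.9% and 15.2% of all tested genes. In M2 against M1 these numbers were 8 and 10, beside 15.5% and 14.4%. Over the 52 genes, Pla2g2d was counted in addition, as higher in CD4 than in M1 and lower in M2 than in CD4. The median log2 ratio over the 52 genes was 0.00, 0.01 and 0.00 in these comparisons in turn.

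Of the 11 phospholipase genes, 4 were lower in M2 than in CD4. Pla2g4a encodes the cytosolic phospholipase A2 that releases arachidonic acid, and it was at 19.1 FPKM in CD4, 22.2 in M1 and 1.13 in M2. Pla2g7, the platelet activating factor hydrolase, had levels of 57.2, 61.4 and 4.68 FPKM in these libraries. Pla2g15, a lysosomal phospholipase, was at 73.7, 35 and 6.12 FPKM and was also higher in CD4 than in M1 (log2 ratio 1.05). The fourth, Pla2g2d, was at 2.72 FPKM in CD4 and listed at 0 in the others, or at 3.78 in CD4, 0.704 in M1 and 0.459 in M2 with all rows. Pla2g4b was higher in M2 than in M1 (1.10).

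Among 7 other prostanoid synthases, the gene 2810405K02Rik, a synthase of prostaglandin F named Prxl2b in later annotation, was at 48.3 FPKM in CD4, 13.9 in M1 and 3.45 in M2. It was the only one counted as different between CD4 and M1 (1.72), in the same direction as Hpgds. Cbr1, a carbonyl reductase, was at 8.77, 4.67 and 12.1 FPKM. Ptges3, a cytosolic prostaglandin E synthase that is also a cochaperone, was at 27.1, 43.2 and 29.2 FPKM, in contrast to Ptges below 1 FPKM. Ptgds, the other prostaglandin D synthase, was at most 1.21 FPKM, in M2.

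The other lipoxygenases were close to 0, with 0.238 FPKM of Alox8 in M2 the highest level of Alox12, Alox12b, Alox12e, Alox8 and Aloxe3 in any library. Of the microsomal glutathione transferases, which belong to the same family as Ltc4s, Mgst2 was at 40.2 FPKM in M2, 8.66 in CD4 and 7.84 in M1. It was higher in M2 by log2 ratios of 2.09 and 2.22, the opposite of Ltc4s. A further row of Mgst2 brought its sum over all rows in M2 to 1430 FPKM, while the other libraries did not change.

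Among 11 genes of conversion, transport and breakdown, 2 were higher in CD4 than in M1. Hpgd, which inactivates prostaglandins, was at 7.04 FPKM in CD4, 0.829 in M1 and 0.757 in M2, an order like that of Hpgds, and Ggt5 was at 5.88, 2.16 and 6.65 FPKM. Those lower in CD4 than in M1 were Dpep2, a dipeptidase that trims leukotriene D4, at 20.3, 92.5 and 1.67 FPKM, and Cyp4f18, which hydroxylates leukotriene B4, at 0.899, 12.4 and 6.06 FPKM. Ptgr1, which oxidises leukotriene B4 and reduces prostaglandin metabolites, was at 8.97, 18.0 and 2.95 FPKM, but with all rows at 31.1, 18.0 and 9.83. Ggt1 (2.60 FPKM in M2) was higher in M2 than in both others.

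Receptors were divided between the libraries as well. Ltb4r1, the high affinity receptor for leukotriene B4, was at 75.2 FPKM in M1, 2.99 in CD4 and 1.89 in M2, a log2 ratio of -4.26 in CD4 against M1. Ptgir, the prostacyclin receptor, was at 11.1 FPKM in M1, 1.70 in M2 and 0.560 in CD4, and Ptger2, a receptor for prostaglandin E2, at 2.72, 1.14 and 0.35 in turn. Fpr2, a formyl peptide receptor that also binds lipoxin, was at 29.9, 2.70 and 10.9 FPKM. M1 was the highest library for these 4 genes, as it was for Ptgs2 and Alox15, except that with all rows Ptger2 was at 2.87 FPKM in M2 and 2.72 in M1.

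Tbxa2r, the thromboxane receptor, had the opposite place to its synthase. It was at 11.5 FPKM in M2, 0.0679 in CD4 and 0.0323 in M1, while Tbxas1 was lowest in M2. Ptger3 was at 30.1 FPKM in M2, 11.5 in M1 and 7.58 in CD4, and Ptger4, the other abundant receptor for prostaglandin E2, was between 8.64 (M1) and 14.8 FPKM (CD4) and was not counted as different in any comparison. Cysltr1, a receptor for cysteinyl leukotrienes, followed Alox5 and Ltc4s in being low in M2, at 9.24 FPKM in CD4, 15.1 in M1 and 0.280 in M2, or at 19.9, 38.6 and 1.23 with all rows. Cysltr2 was at most 1.4 FPKM, or 2.47 with all rows, in M2. The prostaglandin D2 receptors Ptgdr and Gpr44 were at most 0.00524 FPKM, in contrast to Hpgds.

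**Figure D4:**
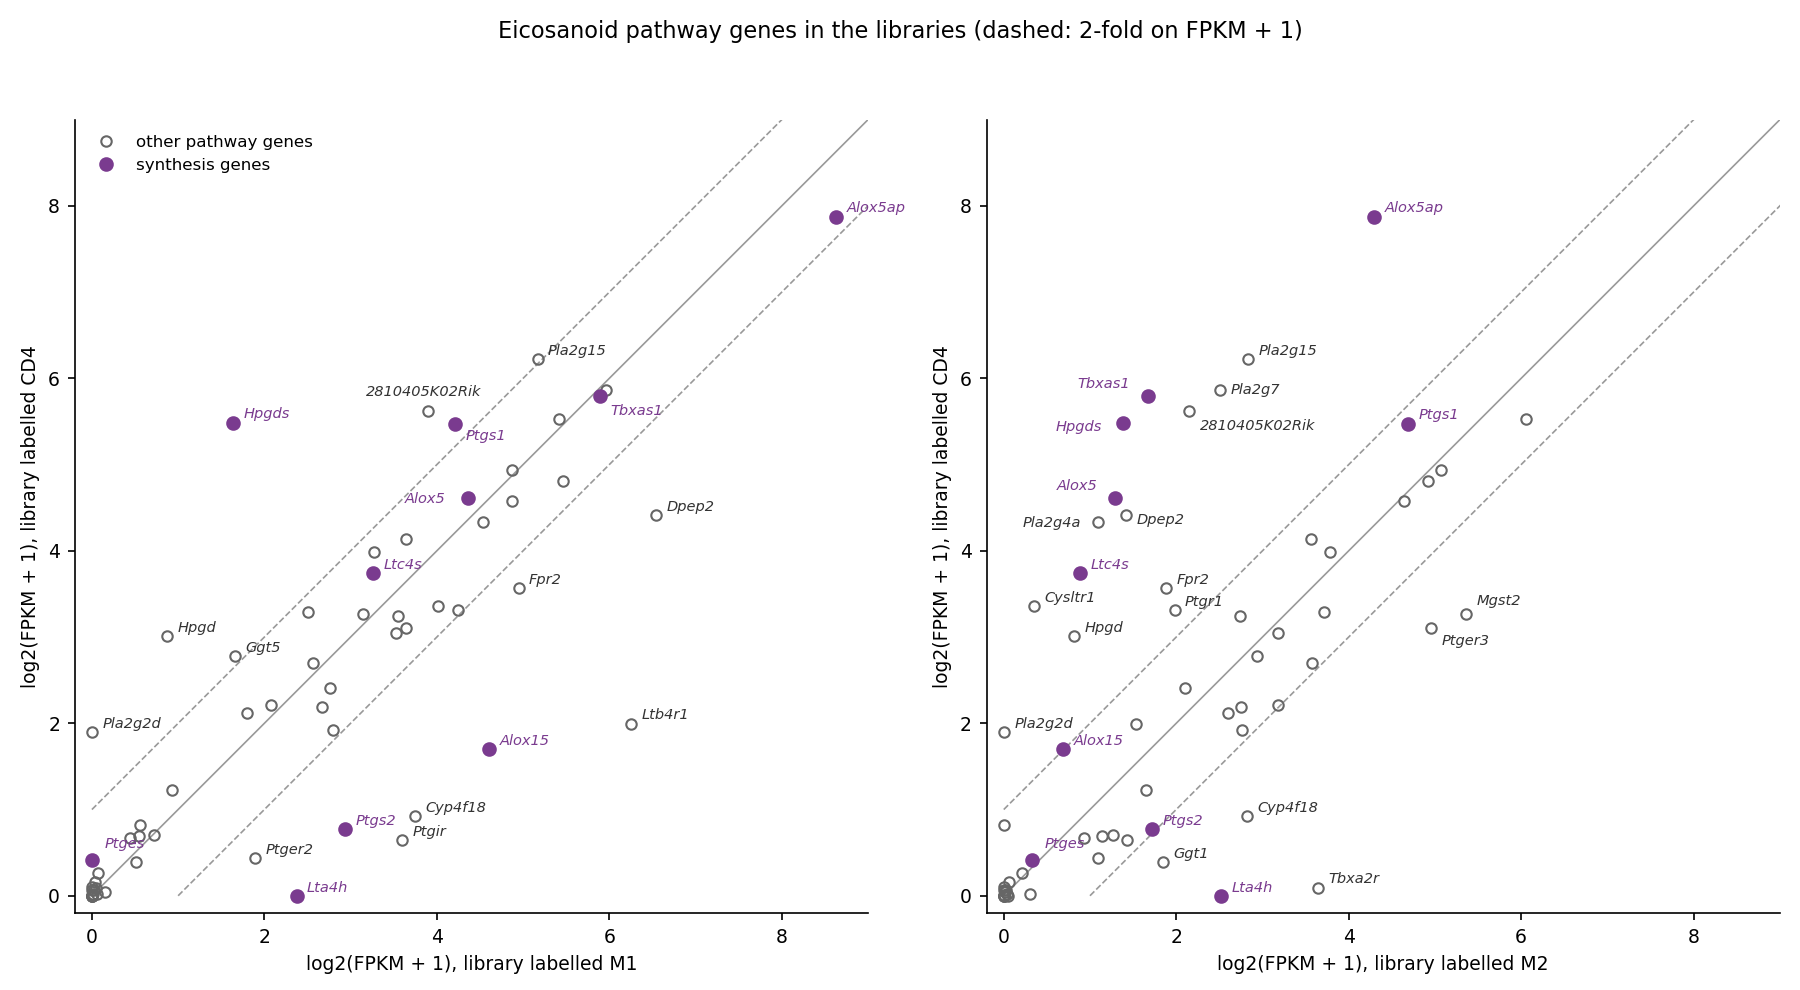
Levels as log2(FPKM + 1) of the 10 synthesis genes (filled, 1 row per identifier) and 52 other eicosanoid pathway genes (open) in the library labelled CD4 (vertical axis) against M1 (left) and M2 (right), with the solid line for equal levels and dashed lines for 2-fold. Hpgds, Hpgd and 2810405K02Rik lie above the lines on the left and Ltb4r1, Dpep2, Alox15 and Ptgs2 below them, while on the right Tbxa2r and Mgst2 lie on the opposite side from Tbxas1 and Ltc4s.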

How the data were processed

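Paired reads were trimmed for quality by the authors, aligned to the mouse build MM9 with Bowtie and TopHat, and assembled and quantified with Cufflinks and an Ensembl annotation. The submitters' processing notes name Cuffdiff as well. What the authors deposited is FPKM per transcript, in 1 table of 135070 rows with a column per library, and a dash stands where a row has no value. Fragments that fit several variants are divided by the Cufflinks model, so levels of single transcripts are estimates, and how the 3 assemblies were joined is not given in the sources used here.

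The heading of each column gave its sample. Identifiers were joined to GENCODE vM1 (NCBIM37), which held 90316 of 92519. For each identifier the first row with values in all 3 columns was used, and rows were summed per gene. Of the 66 rows of the 10 members, 35 were used. Of the identifiers, 1067 had more than 1 such row. A pseudocount of 1 FPKM was added before log2 ratios, the 2-fold threshold was a log2 ratio of 1, and shares of all genes were taken among those averaging 1 FPKM or more. With 1 library per subset no p-value is given. Depth was estimated from the commonest smallest product of FPKM and length in coding genes with 1 transcript of 2500 to 8000 bases. This estimate was added after the data were seen.

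The members and lists were chosen with earlier results of these data known. Named pathway genes were, per list, up to 3 genes past the threshold in most comparisons and each receptor of at least 1 FPKM, and of each marker list up to 2 of the highest genes. Pla2g2d, Pla2g4b, Hpgd, Ggt1, Ggt5, Ptges3, Ptgds, Ptgdr, Gpr44, Ly6g, Csf3r, Elane, Cd79b, Pax5, the platelet genes at 0 and the other lipoxygenases were named after their values were seen. The alternatives were another treatment of repeated rows and of dashes, the highest or only coding transcripts, a pseudocount of 0.1, other filters, and 2 scalings. The calculations were tested on simulated data for M2 against M1, with 200 of 11869 genes changed 4-fold. Of these 100% were counted in each direction, and 0.0171% of the others. The changed genes were drawn from the better expressed ones, and 4-fold lies beyond the 2-fold threshold. Unchanged genes differed by random counting alone, so these shares check the calculation and do not measure how often real single libraries differ. Python 3.11.15, numpy 2.4.6, pandas 2.3.3 and matplotlib 3.10.9 were used. Upstream sequences of the other 7 members are not reported here.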

Additional observations from a re-analysis of the deposited data

Results flagged for a closer look

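Rows that share an identifier with a member but were not used for its level held signal above that of 3 fragments in 15 combinations of gene and library. For Lta4h these rows held 26.9 FPKM in CD4, 27.4 in M1 and 36.0 in M2, more than the row used. For Hpgds they held 5.01 FPKM in M1 and 2.52 in M2. For Alox5ap and Alox15 they held 8.07 and 0.928 FPKM, in M2 only. For Tbxas1 they held 1.79 FPKM in CD4, 1.98 in M1 and 0.839 in M2. For Ptges they held 0.501 FPKM in CD4, 0.930 in M1 and 0.379 in M2. Ptgs1 had 1.55 FPKM in M1 and Ptgs2 0.840 in CD4. Of the 31 rows, 29 had a value in 1 library. What these rows are was not tested.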

How the results depend on the processing

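No paired analysis was possible because there is a single library of every subset. The 10 alternatives gave 300 values of single members. A filter on low genes cannot change the ratio of a member, so the 30 values under each of the other filters were the same by construction. Of the 300 values, these included, 287 stayed on the same side of the 2-fold threshold. Of these, 6 had the other sign, all of them for Ptges and between -0.24 and 0.33, and 2 were at 0.00. With the first row of each identifier and a dash read as 0, Hpgds in CD4 against M1 reversed to -0.92, because its first rows hold a value in M1 only. Hpgds in M2 against CD4 then went from -4.11 to 0.00. Ptgs2 went to 0.00 from -2.16 in CD4 against M1 and from -1.22 in M2 against M1. Members higher in CD4 than in M1 numbered 1 under that setting instead of 2. Members higher in M2 than in CD4 numbered 0 with the sum over all rows, the highest complete row or a mean of at least 10 FPKM, and 2 with a pseudocount of 0.1, instead of 1. With a mean of at least 10 FPKM fewer genes were tested, by construction. The members lower in CD4 than in M1 then numbered 0 and those lower in M2 than in M1 3, and of all genes 282 were higher and 305 lower in CD4 against M1, 664 and 1024 in M2 against CD4, and 596 and 976 in M2 against M1. In the main setting these were 728 and 762, 1883 and 1806, and 1841 and 1708. The other 128 of 141 counts stayed within 1.5 times, both scalings included.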
